A study of Mus musculus with 8 samples.

Results

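The spread of gene expression between adenomas of the same kind was measured in 2 mouse models of colon adenoma. The 6 adenomas, 3 per model, made up 6 of the 8 libraries of the study, and the other 2 libraries were non-adenoma colon, 1 section per model. Genes were chosen by level alone: 15704 of the 31189 genes in the table had a mean of at least 10 estimated counts over the 6 adenomas. For each of them the standard deviation (SD) of log2 CPM was taken over the 3 ApcMin/+ adenomas and, separately, over the 3 AOM/DSS adenomas, where CPM is the count of a gene scaled to the TMM-adjusted size of its library.

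Both groups were on the C57BL/6J background. The ApcMin/+ mice carried 1 mutant allele of Apc, were given no treatment and were 110 to 120 days old when killed. The AOM/DSS mice were wild type. They were injected with 10 mg/kg of the carcinogen azoxymethane (AOM) when 6 to 7 weeks old, drank 2% dextran sulfate sodium (DSS), an agent that damages the colon lining, in 3 cycles, and were killed 70 days after the injection. Per the labels, their adenomas expressed a β-catenin that cannot be degraded. Each adenoma was excised whole and its RNA was isolated as 1 bulk sample. The labels do not say which adenomas shared a mouse, so an SD here can hold differences between lesions, between mice and between dissections.

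Adenomas of both kinds start from activation of canonical WNT signalling, in which β-catenin escapes the APC destruction complex and drives genes such as Axin2, Notum and Lgr5 together with LEF and TCF factors. Around the dysplastic glands an excised adenoma holds stroma, vessels, infiltrating leukocytes and lymphoid follicles, and it may carry normal mucosa from its edge and muscle from the wall below. Absorptive colonocytes, mucus-producing goblet cells and hormone-producing enteroendocrine cells are the mature epithelial types of normal colon. In such bulk samples fewer cells of a type and less RNA per cell cannot be told apart.

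Library totals lay between 18156741 and 22719895 counts, and a count of 0 allows 0.127 to 0.174 CPM (3 counts, counting error only). Transcripts of 4 Y-linked genes were present in all 8 libraries, at a summed 246 to 395 CPM. Immunoglobulin and T cell receptor segments took 0.260%, 0.0550% and 0.254% of the counts in ApcMin/+ adenomas 1 to 3 and 0.722%, 3.37% and 0.394% in AOM/DSS adenomas 1 to 3. ApcMin/+ adenoma 3 and AOM/DSS adenoma 2 stood apart from their groups in the results below. Values without them are given beside the results they carry. No test can separate 1 adenoma from the other 2 of its model, so levels within a model are described without p-values.

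Most genes differed little between adenomas of a model. The median SD was 0.206 over the ApcMin/+ adenomas and 0.225 over the AOM/DSS adenomas, against 0.0633 and 0.0628 for counting noise alone. Of the 15704 genes, 830 (5.29%) had an SD of at least 1 log2 unit over the ApcMin/+ adenomas, and 1034 (6.58%) over the AOM/DSS adenomas. These are called widely spread genes below. Each set leaned on 1 library: without ApcMin/+ adenoma 3 the first count was 432, and without AOM/DSS adenoma 2 the second was 672. For the median gene 54.2% of the sum of squares over all 6 adenomas lay within the models and the rest between them. Most degrees of freedom lie within the models, so this share does not show which source of variation was larger. Of the genes that passed, 503 had a mean under 10 counts in the ApcMin/+ adenomas and 314 in the AOM/DSS adenomas, and their SD in that model rests on few counts.

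The widely spread genes of the models overlapped in part. They shared 363 genes (2.31% of all), which is 43.7% of the ApcMin/+ set and 35.1% of the AOM/DSS set. Antibody genes made up a large share of the overlap: of 211 immunoglobulin and T cell receptor segments, 144 were widely spread in ApcMin/+, 191 in AOM/DSS and 133 in both. Pseudogenes added 63 of the shared genes and unnamed gene models 20. Among the 13985 named genes of other types, 520 (3.72%) were widely spread in ApcMin/+ and 634 (4.53%) in AOM/DSS. They had 147 in common, 28.3% of the first set and 23.2% of the second. Without ApcMin/+ adenoma 3 and AOM/DSS adenoma 2 the named genes in common were 29, of 192 and 490. When the 5% of genes with the highest SD were taken within bins of mean level, 228 of 780 (29.2%) were shared, where each set held 4.97% of the genes. Across all genes the SDs of the models had a Spearman correlation of 0.476. Both SDs also depend on a gene's level, so this is a description.

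**Figure D1:**
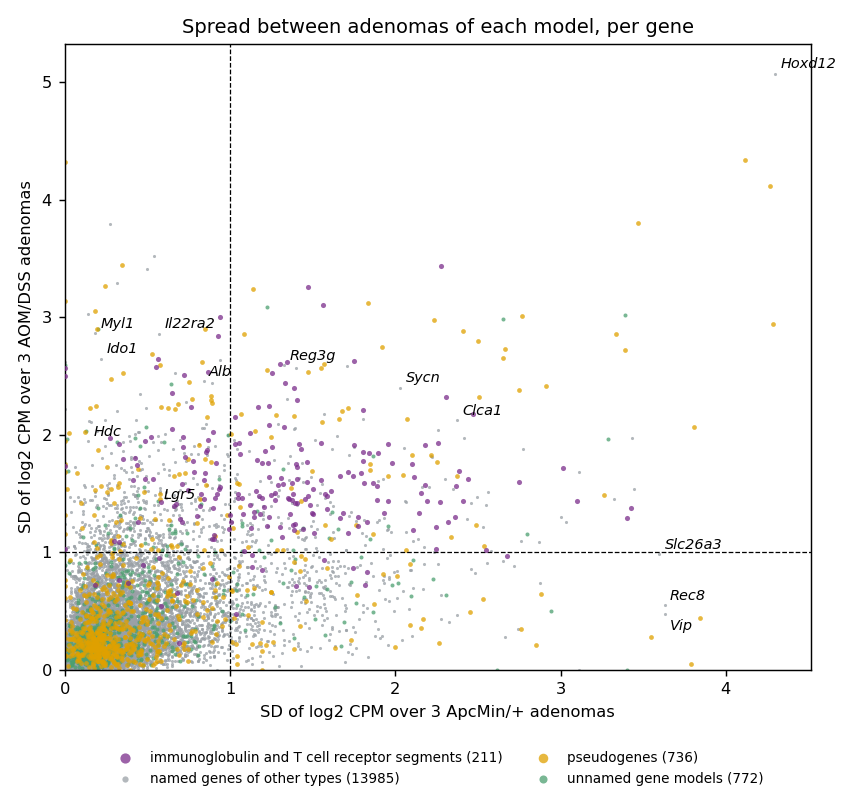
Each point is 1 gene, placed by the SD of its log2 CPM over the 3 ApcMin/+ adenomas (x axis) and over the 3 AOM/DSS adenomas (y axis), and coloured by gene class with the number of genes in brackets. Dashed lines mark an SD of 1. Most genes lie near the origin, and Hoxd12 has the highest SD in both models. Of the 363 genes at or beyond both lines, 147 are named genes of other types. A further 133 are immunoglobulin and T cell receptor segments, 63 are pseudogenes and 20 are unnamed gene models.

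The tests of a difference in spread between the models called no gene. A limma fit to the absolute deviations from the group mean called 0 genes (0%) wider in AOM/DSS and 0 (0%) wider in ApcMin/+ at an adjusted p under 0.05. The smallest adjusted p was 0.146. At an unadjusted p under 0.05 there were 1558 genes wider in AOM/DSS and 1127 wider in ApcMin/+. On simulated data this fit gave such p-values more often than nominal for genes with no difference. Whether these counts hold an excess therefore cannot be judged from them. A likelihood ratio test of edgeR dispersions called 0 genes, with 535 and 375 at an unadjusted p under 0.05. On simulated data this second test recovered no gene given a wider spread, so its lack of calls carries no information. The SDs of a gene in the 2 models are therefore set side by side below, and a difference between them is not a tested result.

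For each widely spread gene the 3 adenomas were ordered and the one with the wider gap to the middle value was taken as standing apart. Among the 520 named genes of ApcMin/+, adenoma 3 stood apart on the high side for 399 (76.7%), against 22.0% of all named genes. Among the 634 of AOM/DSS, adenoma 2 stood apart on the high side for 328 (51.7%), against 21.3% of all named genes. Adenoma 1 stood apart on the low side for 120 (18.9%) and adenoma 3 for 75 (11.8%), shares close to the 16.1% and 12.6% of all named genes. Of the 147 genes widely spread in both models, 51 combined a high ApcMin/+ adenoma 3 with a high AOM/DSS adenoma 2, and 33 combined it with a low AOM/DSS adenoma 3.

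**Figure D2:**
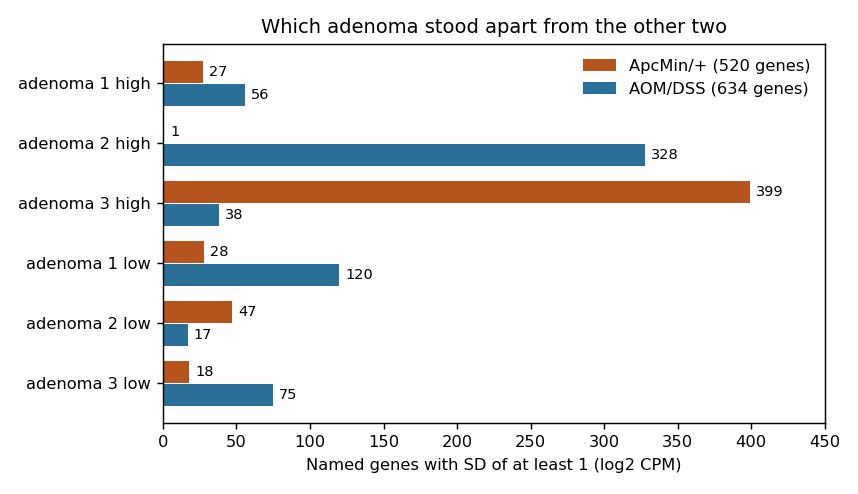
Bars count the named genes with an SD of at least 1 by the adenoma that stood apart and its direction, for 520 genes of ApcMin/+ (brown) and 634 of AOM/DSS (blue). The ApcMin/+ genes gather at a high adenoma 3 (399), while the AOM/DSS genes are divided between a high adenoma 2 (328) and 5 other patterns of 17 to 120 genes.

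The level of a cell programme in an adenoma was taken as the mean log2 CPM over a gene list. Of 53 lists, 10 had an SD of at least 0.5 over the ApcMin/+ adenomas and 12 over the AOM/DSS adenomas. Without ApcMin/+ adenoma 3 the first number was 4, and without AOM/DSS adenoma 2 the second was 5. In ApcMin/+ the widest lists were goblet cell (SD 1.58), colonocyte (1.40), enteric neuron, glia and Cajal cell (1.24) and enteroendocrine (1.07). In AOM/DSS they were B cell and follicle (1.73), plasma cell (1.40), interferon response (1.12), cytotoxic lymphocyte (1.02) and MHC class II presentation (1.01). Goblet cell genes had a wide range in both, with an SD of 0.85 in AOM/DSS.

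**Figure D3:**
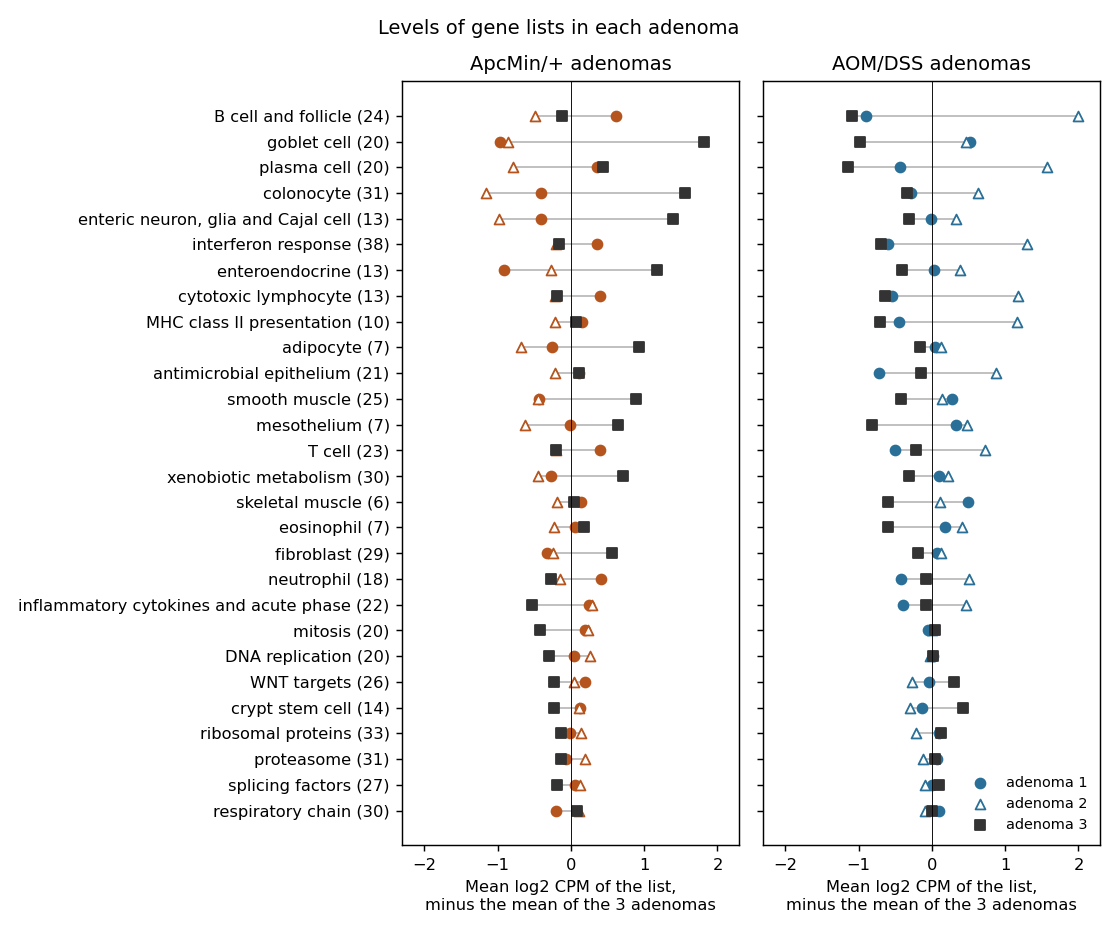
Symbols give the mean log2 CPM of each gene list in adenomas 1, 2 and 3, minus the mean of the 3 adenomas, for ApcMin/+ (left) and AOM/DSS (right); the number of genes averaged is in brackets. The 20 lists with the largest SD in either model come first. ApcMin/+ adenoma 3 (square) is far to the right for epithelial, nerve and muscle lists, AOM/DSS adenoma 2 (triangle) for immune lists, and the splicing, proteasome and ribosomal lists at the bottom stay close to 0.

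ApcMin/+ adenoma 3 had far higher levels of mature colon epithelium genes than adenomas 1 and 2. Of 20 goblet cell genes, 20 were highest in adenoma 3, where 35.6% of all genes were highest, and 16 had an SD of at least 1. Of 31 colonocyte genes, 27 were highest there and 22 were widely spread. Muc2, the main secreted colon mucin, had 144, 123 and 2474 CPM in adenomas 1 to 3. Zg16, a lectin of the mucus layer, had 55.0, 14.5 and 1484 CPM. The first 2 adenomas were low and the third was high in both cases, and the sections were higher still, at 6194 CPM of Muc2 and 6246 of Zg16 in the ApcMin/+ section. Slc26a3, the chloride and bicarbonate exchanger of surface colonocytes, had 4.32, 0.263 and 52.3 CPM (SD 3.60), and the water channel Aqp8 had 7.64, 0.263 and 22.7 CPM (SD 3.11). Both separated adenoma 2 from adenoma 1 as well, with adenoma 2 the lowest. Without adenoma 3 the SD of the goblet cell list was 0.07 and that of the colonocyte list 0.54.

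Transcription factors of the gut epithelium were also highest in adenoma 3. Cdx2, which specifies intestinal identity, had 1.30, 0.657 and 11.2 CPM in ApcMin/+ adenomas 1 to 3 and 63.4 CPM in the section. Atoh1, which commits cells to the secretory lineage, had 4.09, 6.62 and 32.6 CPM, and Spdef, which acts later in goblet cells, had 4.50, 9.29 and 38.6. All 3 were highest in adenoma 3 by a wide gap. The general epithelium list had an SD of 0.39, with 17 of 21 genes highest in adenoma 3 and 2 widely spread. Lgals4, an intestinal galectin, had 544, 786 and 1841 CPM (SD 0.90). The adhesion molecule Epcam had 1407, 1758 and 1546 CPM (SD 0.16), with adenoma 2 the highest, and Cdh1, which encodes E-cadherin, had 785, 784 and 984 CPM (SD 0.19).

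Muscle and nerve genes were highest in the same adenoma. All 25 smooth muscle genes of the list that passed were highest in ApcMin/+ adenoma 3, and 8 were widely spread. Des, the muscle intermediate filament desmin, had 17.9, 14.5 and 146 CPM, and Cnn1, the contractile protein calponin, had 14.9, 16.7 and 121. Adenomas 1 and 2 were close to each other for both genes and adenoma 3 lay between them and the section, which had 698 CPM of Des and 495 of Cnn1. Vip, a neuropeptide of enteric neurons, had 0.495, 0.0438 and 18.4 CPM (SD 3.63), and 12 of 13 enteric neuron, glia and Cajal cell genes were highest in adenoma 3. Enteroendocrine genes were less uniform, with 10 of 13 highest there: Chgb, a granule protein, had 5.22, 6.92 and 67.4 CPM, whereas Pyy, which encodes the hormone peptide YY, was highest in adenoma 2, at 94.2, 174 and 68.5 CPM. Without adenoma 3 the SDs of the smooth muscle and nerve lists were 0.02 and 0.41, against 0.77 and 1.24 with it.

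Cell division genes ran the other way in ApcMin/+. All 20 mitosis genes and all 20 DNA replication genes were lowest in adenoma 3, where 37.1% of all genes were lowest. Top2a, a topoisomerase of dividing cells, had 335, 365 and 212 CPM, and Birc5, the mitotic regulator survivin, had 54.7, 60.9 and 33.0. The lists had SDs of 0.36 and 0.29, and without adenoma 3 of 0.03 and 0.15. In AOM/DSS the same lists had SDs of 0.05 and 0.02, among the smallest of all lists: Birc5 had 58, 59.2 and 55.1 CPM, and Ccna2, which encodes cyclin A2, had 107, 106 and 105.

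The genes high in ApcMin/+ adenoma 3 were genes of the non-adenoma colon. Of the 399 named genes with that pattern, 380 (95.2%) were higher in the ApcMin/+ section than in any of the 3 adenomas, against 40.2% of all named genes. Adenoma 3 thus lay between the other two and the section for most of them. Marker lists of the normal wall had the same order. The summed level of the 25 smooth muscle genes was 2541, 2609.8 and 4429 CPM in adenomas 1 to 3 and 11531 in the section. That of the 7 adipocyte genes was 40.4, 38.2 and 87.4 CPM, with 427 in the section. Most of the adipocyte rise in adenoma 3 came from 1 gene, Pck1, which had 2.43, 0.657 and 36.9 CPM, with 234 in the section. The 31 colonocyte genes summed to 1386, 1219.8 and 5071 CPM, with 17536 in the section. The part that normal tissue in the dissected piece played in these values was not tested. In AOM/DSS, of the 328 named genes high in adenoma 2, 68 (20.7%) were higher in the AOM/DSS section than in any adenoma, against 32.3% of all named genes, and for 162 (49.4%) the section lay within the range of the adenomas. Of the 75 low in adenoma 3, 39 (52.0%) were higher in the section than in any adenoma.

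Other ApcMin/+ genes set adenoma 1 or adenoma 2 apart. Rec8, a meiotic cohesin subunit, had 52.1, 0.351 and 1.10 CPM in ApcMin/+ adenomas 1 to 3 and 64.8, 33.9 and 66.7 in the AOM/DSS adenomas. It was high in 1 of 3 adenomas in the first model and in 3 of 3 in the second. Xlr3a, a member of a multicopy X-linked family whose reads the counting could split among copies, had 0.719, 38.3 and 21.5 CPM. Krt15, a basal keratin, had 12.7, 80.1 and 45.8 CPM. The leukocyte protease gene Mmp9 was highest in adenoma 1, at 163, 53.6 and 43.7 CPM, as were 15 of 18 neutrophil genes and 31.5% of all genes. Lcn2, an iron-binding antimicrobial protein, had 263, 148 and 62.5 CPM, so no 2 adenomas were close. Fos, an immediate early gene that also responds to handling of tissue, had the opposite order, at 29.0, 74.8 and 165 CPM. Antibody genes were lowest in adenoma 2: Igha, the heavy chain of IgA, had 1020, 204 and 1053 CPM (SD 1.35).

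AOM/DSS adenoma 2 had the highest level of all 38 interferon response genes, where 36.1% of all genes were highest, and 27 of the 38 were widely spread in AOM/DSS. In ApcMin/+ 0 of the 38 were. Tgtp1, an interferon-induced GTPase, had 14.7, 154 and 36.5 CPM in AOM/DSS adenomas 1 to 3, Rsad2, the antiviral enzyme viperin, had 2.91, 20.2 and 3.91, and Cxcl10, a chemokine that attracts T cells, had 5.99, 27.1 and 3.82. Adenomas 1 and 3 were low and adenoma 2 was high for each of the 3. Ido1, a tryptophan-degrading enzyme induced by interferon γ, had 8.51, 69.2 and 1.70 CPM (SD 2.64). In the ApcMin/+ adenomas it had 0.315, 0.351 and 0.456 CPM. The interferon list had an SD of 1.12 in AOM/DSS and of 0.06 without adenoma 2.

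Promoters of these genes often held the motif of interferon regulatory factors. The sequences below are the 250 bases before the start of transcription, 5′ to 3′ on the strand of the gene, from RefSeq (GRCm38.p6, a later build than the mm9 of the counts), for the 3 list members with the highest AOM/DSS SD whose window held the motif GAAANNGAAA. Capitals mark the motif on either strand, so that Rsad2 shows its reverse complement.
Tgtp1 chr11:48992247-48992496, minus strand: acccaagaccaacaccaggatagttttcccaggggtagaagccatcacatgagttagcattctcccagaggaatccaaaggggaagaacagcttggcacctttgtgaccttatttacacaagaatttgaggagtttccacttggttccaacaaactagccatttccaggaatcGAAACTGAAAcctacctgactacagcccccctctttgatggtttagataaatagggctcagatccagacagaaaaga
Rsad2 chr12:26456453-26456702, minus strand: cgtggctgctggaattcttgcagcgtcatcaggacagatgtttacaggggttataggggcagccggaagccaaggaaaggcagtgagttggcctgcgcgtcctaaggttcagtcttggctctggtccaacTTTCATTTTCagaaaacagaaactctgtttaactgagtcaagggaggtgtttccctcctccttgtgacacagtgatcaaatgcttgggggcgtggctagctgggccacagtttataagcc
Cxcl10 chr5:92348890-92349139, minus strand: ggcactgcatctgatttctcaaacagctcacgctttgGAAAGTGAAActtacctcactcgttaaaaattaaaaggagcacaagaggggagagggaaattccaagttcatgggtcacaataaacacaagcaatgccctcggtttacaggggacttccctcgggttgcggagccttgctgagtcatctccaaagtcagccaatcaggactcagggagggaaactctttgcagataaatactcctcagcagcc
The search covered both strands from 250 bases before to 50 after each RefSeq start, and a gene counted when any of its windows held the motif. Of the 38 list members, 27 had a window and 17 of these (63.0%) held the motif, against 429 of 11065 genes with a window (3.88%). Among the widely spread named genes outside the list, 22 of 223 (9.87%) that were high in AOM/DSS adenoma 2 held it, and 0 of 14 that were low there. Genes low in adenoma 3 held it in 4 of 45 cases (8.89%) and genes low in adenoma 1 in 5 of 79 (6.33%). Genes high in adenoma 3 held it in 1 of 28 cases (3.57%) and genes high in adenoma 1 in 1 of 38 (2.63%). Outside the list the motif was thus about as frequent in genes low in adenoma 3, on 4 matches, as in genes high in adenoma 2. A match is a string of letters and says nothing about binding in these samples.

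Lymphocyte genes were highest in the same adenoma. All 24 B cell and follicle genes were highest in AOM/DSS adenoma 2, and 23 were widely spread. Ms4a1, the B cell surface protein CD20, had 7.57, 85.9 and 9.13 CPM in adenomas 1 to 3, and Cr2, the complement receptor CD21 of B cells and follicular dendritic cells, had 7.06, 63.1 and 7.86. Adenomas 1 and 3 were close to each other and below the AOM/DSS section, which had 12.2 CPM of Ms4a1 and 10.3 of Cr2. Without adenoma 2 the SD of the B cell list was 0.14, against 1.73 with it. Class-switched antibody genes were spread as widely: Ighg1 had 234, 2007 and 63.9 CPM, and Igha 2546, 10429.6 and 1493. The order of adenomas 1 and 3 was the same for both, with adenoma 3 the lowest.

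T cell, cytotoxic and antigen presentation genes were also highest in AOM/DSS adenoma 2, by smaller margins than B cell genes. Of 13 cytotoxic lymphocyte genes 12 were highest there and 7 were widely spread, against 6.58% of all genes. Of 23 T cell genes 22 were highest there but 0 had an SD of at least 1. Cd3e, a T cell receptor subunit, had 3.29, 9.38 and 4.72 CPM, and Foxp3, the factor of regulatory T cells, had 6.93, 15.9 and 7.99. All 10 MHC class II genes were highest in adenoma 2, and 4 were widely spread. Cd74, the invariant chain, had 778, 1931 and 735 CPM, and Ciita, the master regulator of the class II genes, had 14.2, 63.4 and 14.3. Of 22 macrophage genes 18 were highest there, with a list SD of 0.37.

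Epithelial defence genes shared the pattern. Of 21 antimicrobial epithelium genes, 17 were highest in AOM/DSS adenoma 2 and 8 were widely spread in AOM/DSS, against 6.58% of all genes. In ApcMin/+ 9 of the 21 were widely spread, against 5.29% of all genes. There 5, 6 and 10 of the 21 were highest in adenomas 1, 2 and 3. Reg3g, a lectin that kills Gram-positive bacteria, had 20.02, 551 and 31.5 CPM in AOM/DSS adenomas 1 to 3 and 72.1, 96.8 and 17.2 in the ApcMin/+ adenomas. Reg3b had 18.3, 304 and 28.3 CPM in AOM/DSS. Both were low in 2 AOM/DSS adenomas and high in the third, while the AOM/DSS section had 268 CPM of Reg3g and 555 of Reg3b. Il22ra2, a soluble receptor that binds interleukin 22, had 0.513, 19.3 and 0.552 CPM (SD 2.86). Il17a, the cytokine interleukin 17A, had 0.599, 4.05 and 0.637. The summed level of the 24 B cell and follicle genes in the same 3 adenomas was 221, 1580.1 and 185 CPM, with 257 in the section and 37.9 to 59.1 in ApcMin/+. The part that lymphoid tissue in that piece played in the interferon and defence genes was not tested.

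AOM/DSS adenoma 3 had the highest level of several WNT pathway genes and the lowest of most goblet cell genes. Lgr5, the R-spondin receptor that marks crypt stem cells, had 17.4, 32.0 and 118 CPM in AOM/DSS adenomas 1 to 3. Wif1, a secreted WNT inhibitor, had 87.8, 161 and 479 CPM, and Notum, the enzyme that inactivates WNT ligands, had 172, 190.0 and 512. The transcription factor gene Prox1, a WNT target in colon tumours, had 56.8, 146 and 384 CPM. Adenoma 3 was the highest for all 4 genes. In the ApcMin/+ adenomas Lgr5 had 100.5, 123 and 57.7 CPM, Wif1 652, 814 and 532, and Prox1 463, 409 and 303. AOM/DSS adenoma 3 was thus within or near the ApcMin/+ range for Lgr5, Wif1 and Prox1, and adenomas 1 and 2 were below it. Notum differed, with 271, 250 and 190 CPM in the ApcMin/+ adenomas. For Notum AOM/DSS adenoma 3 was above that range, adenoma 2 at its lower end and adenoma 1 below it. Of 26 WNT target genes 19 were highest in adenoma 3 and 19 were lowest in adenoma 2, where 32.1% and 34.7% of all genes were. Of the 26, 3 had an SD of at least 1, against 6.58% of all genes. Of 14 crypt stem cell genes 8 were highest in adenoma 3 and 6 in adenoma 1, and 1 was widely spread. Ascl2, a stem cell transcription factor, was not, at 50.3, 28.7 and 50.2 CPM (SD 0.47).

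Some genes outside the colon's usual repertoire had the same order. Slc38a4, an amino acid transporter of liver and placenta, had 0.684, 1.44 and 14.8 CPM in AOM/DSS adenomas 1 to 3, and Gulo, the last enzyme of vitamin C synthesis, had 0.984, 9.54 and 40.6. Alb, the serum protein albumin, had 1.03, 4.11 and 32.8 CPM. Each was lowest in adenoma 1 and highest in adenoma 3, and the ApcMin/+ adenomas had 23.1 to 64.8 CPM of Alb. T, which encodes brachyury, had 2.40, 5.17 and 19.9 CPM. Muc6, a mucin of stomach glands, had 3.34, 23.6 and 49.6 CPM. Of 20 goblet cell genes 18 were lowest in adenoma 3, where 30.6% of all genes were: Fcgbp, a mucus protein, had 581, 260.3 and 37.0 CPM, and Muc2 had 369, 346 and 76.5. Lyve1, a marker of lymphatic vessels, was also low there, at 12.6, 17.3 and 3.40 CPM.

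AOM/DSS adenoma 1 stood apart on the high side for 56 of the 634 widely spread named genes (8.83%), against 16.1% of all named genes. Hdc, which makes histamine, had 143, 17.8 and 11.4 CPM in AOM/DSS adenomas 1 to 3, whereas the ApcMin/+ adenomas had 31.0, 31.6 and 26.5. Myl1, a light chain of fast skeletal muscle myosin, had 209.7, 18.7 and 3.99 CPM, against 0.319 to 0.438 in ApcMin/+. Both spread widely in AOM/DSS (SD 1.94 and 2.86). In ApcMin/+ Hdc spread narrowly (SD 0.14). Myl1 had an SD of 0.18 there, but on 8, 10 and 7 counts, where counting noise alone gives 0.45, so its spread cannot be judged. Adjusted p for the difference in spread was 0.147 for Hdc and 0.153 for Myl1 (limma, smallest in the data 0.146). Of 6 skeletal muscle genes that passed, Myl1 was the 1 with an SD of at least 1. Tnnt1, a troponin of slow skeletal muscle outside the list, had 9.02, 1.49 and 2.04 CPM (SD 1.35), also with adenoma 1 the highest. Bambi, a decoy receptor of TGF-β signalling and a WNT target, had 78.0, 16.8 and 20.3 CPM. Lcn2 and Clu were low in adenoma 1: Lcn2 had 7.19, 43.0 and 92.1 CPM, and Clu, which marks regenerating epithelium, had 129, 548 and 500.

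**Figure D4:**
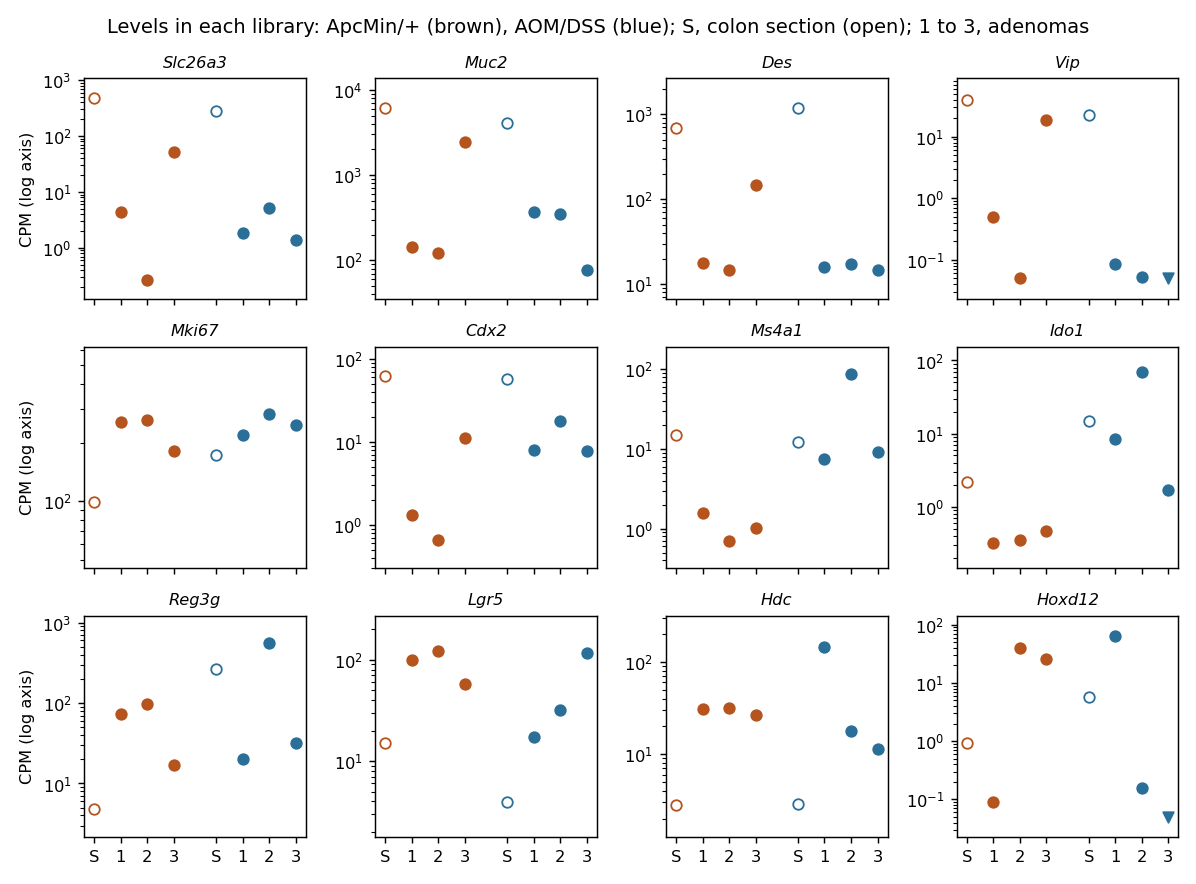
Points give CPM on a log axis for 12 genes in the section (S, open) and adenomas 1 to 3 of ApcMin/+ (brown) and AOM/DSS (blue); a triangle stands for a count of 0. Slc26a3, Muc2, Des, Vip and Cdx2 are highest among ApcMin/+ adenomas in adenoma 3, Ms4a1, Ido1 and Reg3g are highest among AOM/DSS adenomas in adenoma 2, Lgr5 in adenoma 3 and Hdc in adenoma 1, and Hoxd12 is split within both models.

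Hoxd12 had the highest SD of all genes in both models. It encodes a homeobox factor from the posterior end of the HoxD cluster, which patterns limbs, hindgut and genital tissue. In the ApcMin/+ adenomas it had 2, 892 and 561 counts, or 0.0899, 39.1 and 25.6 CPM (SD 4.30). In the AOM/DSS adenomas it had 1498, 3 and 0 counts, or 64.1, 0.160 and 0 CPM (SD 5.07). Each model thus held adenomas with 561 counts or more and adenomas with 3 or fewer, and the sections had 16 and 114 counts. Its cluster neighbours were expressed in all 6 adenomas. Hoxd13 had 68.9, 191 and 140.4 CPM in ApcMin/+ and 277, 180.1 and 212 in AOM/DSS, and Hoxd11 had 6.83, 27.7 and 23.4, then 47.9, 20.2 and 30.6. Both were lowest in ApcMin/+ adenoma 1 and highest in AOM/DSS adenoma 1, as Hoxd12 was in ApcMin/+ adenoma 1 and AOM/DSS adenoma 1, but their SDs were 0.75 and 1.09 in ApcMin/+ and 0.31 and 0.62 in AOM/DSS. Hoxd12 shares no exon base with another gene in GENCODE M21. Posterior Hox genes of other clusters were narrow: Hoxb13 had an SD of 0.17 and 0.21.

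Some mucus, secretory and metabolic genes were also spread widely in both models. Clca1, a secreted goblet cell protease, had 80.4, 36.7 and 867 CPM in ApcMin/+ and 15, 71.0 and 3.65 in AOM/DSS. Sycn, a zymogen granule protein, had 9.44, 4.43 and 68.7 CPM, then 0.428, 6.13 and 0.170. Akr1c14, a steroid dehydrogenase, had 6.16, 4.69 and 63.8 CPM, then 1.33, 5.81 and 0.340. For all 3 the highest adenomas were ApcMin/+ adenoma 3 and AOM/DSS adenoma 2, and every adenoma was below the section of its model. Of the 20 goblet cell genes 8 were widely spread in both models, of the 31 colonocyte genes 9, of the 20 plasma cell genes 9 and of the 21 antimicrobial epithelium genes 7. Processed pseudogenes also reached high SDs in both, but there the reads can be divided between the copy and its parent. Pgam1-ps2 had 0, 2.72 and 27.2 CPM in ApcMin/+ and 0, 28.0 and 0.212 in AOM/DSS, while Pgam1 itself had SDs of 0.18 and 0.10. Rps13-ps5 had 20.2, 0 and 11.6 CPM, then 9.37, 17.2 and 0, and Rps13 had SDs of 0.12 and 0.39. Rsc1a1, at 0, 8.90 and 0 CPM in AOM/DSS, lies wholly within exons of Ddi2 in GENCODE M21, and Ddi2 had an SD of 0.04. These values are uncertain.

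The mutated drivers and Axin2 had SDs far below 1. Apc had 150.1, 153 and 149.8 CPM in the ApcMin/+ adenomas (SD 0.01) and 107, 112 and 151 in the AOM/DSS adenomas (SD 0.27). Ctnnb1, which encodes β-catenin, had SDs of 0.16 and 0.22. Axin2, the feedback inhibitor induced by β-catenin, had 377, 283 and 238 CPM in ApcMin/+ and 346, 257 and 418 in AOM/DSS (SD 0.33 and 0.35), against 21.7 and 53 in the sections. Each adenoma was therefore far above its section for Axin2. Rnf43 and Nkd1, further feedback inhibitors, had SDs of 0.21 to 0.36, and Myc had 0.09 and 0.15. The WNT target list had an SD of 0.21 in ApcMin/+ and 0.29 in AOM/DSS.

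Housekeeping programmes varied by small amounts between adenomas. In both models 0 of 33 ribosomal protein genes, 0 of 31 proteasome genes, 0 of 30 respiratory chain genes and 0 of 27 splicing factor genes had an SD of at least 1. Their list SDs ran from 0.09 to 0.19 over the 2 models. Some of these small shifts were shared by nearly all members of a list. In ApcMin/+ adenoma 2, 32 of 33 ribosomal protein and 30 of 31 proteasome genes were highest, against 32.9% of all genes. In ApcMin/+ adenoma 1, 29 of 30 respiratory chain genes were lowest, against 29.3% of all genes. In AOM/DSS adenoma 2, 32 of 33 ribosomal protein genes were lowest, against 34.7% of all genes. Mean levels of the collagen, hypoxia and glycolysis, and p53 target lists had SDs of 0.07 to 0.17, and endothelium 0.10 and 0.19. Opposite shifts of members cancel in such means. The median SD of their single genes in AOM/DSS was 0.32, 0.30, 0.28 and 0.26 in that order, against 0.225 for all genes. In ApcMin/+ it was 0.22, 0.21, 0.21 and 0.24, against 0.206 for all genes. Of all genes 749 (4.77%) had an SD under 0.1 in both models. Among genes with a mean of at least 1000 counts the evenest were Fbxw11, a subunit of the ubiquitin ligase that marks β-catenin for degradation, with 114, 115 and 115 CPM in ApcMin/+ and 99.3, 100.5 and 98.5 in AOM/DSS, and Rock2, a kinase of actomyosin contraction, with 172, 172 and 175 CPM, then 158, 158 and 158. Arpc5, an actin nucleation subunit, and Taok1, a kinase, had SDs of 0.01 to 0.02 in both models. For Fbxw11, Rock2 and Taok1 these SDs were below those of counting noise (0.023 to 0.031), so their order carries no information.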

How the data were processed

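RNA of 6 adenomas and 2 colon sections was sequenced as single-read TruSeq libraries, per the labels' protocols. The authors deposited estimated counts per gene and FPKM values, per the file headers. Reads were placed on mm9, according to the submitters' processing notes. The aligner, counting tool, annotation and strand setting are not given in sources used here, and reads of overlapping or antisense genes cannot be told apart. The lowest deposited estimated count and the lowest deposited FPKM were exactly 1 in all 8 libraries, so both were read as values with 1 added. Here 1 was subtracted and the counts were rounded to whole numbers. Of 31189 rows, 27 carry dates in place of symbols.

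CPM used TMM library sizes and log2 CPM a prior count of 2 (edgeR 4.0.16, R 4.3.3). The spread test was limma 3.58.1 on absolute deviations from the model mean, with Benjamini-Hochberg adjustment over 15704 genes and 4 residual degrees of freedom. It was tested on simulated data, where it recovered few of the genes given a wider spread and gave unadjusted p-values under 0.05 more often than nominal for genes given none. The adenomas of a model may share a mouse, and p-values cover no more than the spread between them. Alternatives were DESeq2 1.42.0 size factors, library totals, other prior counts and filters, FPKM, deviations from the median, edgeR dispersions, a replicate block, and each adenoma left out.

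The 53 gene lists (1183 entries, 1145 genes, 1023 that passed) and the description itself were chosen with earlier results of these data known. Named genes were, per model, the highest and lowest SDs, the largest differences in SD and up to 4 members of each list. Part of them is given here. Further genes, such as Hoxd13, Muc6, T and the parents of pseudogenes, were chosen after their values were seen. Overlap of exons was read from GENCODE M21, in which 174 of 175 genes looked up were found.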

Additional observations from a re-analysis of the deposited data

How the results depend on the processing

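The counts of genes with an SD of at least 1 depend on the filter and on single libraries. They were 830 in ApcMin/+, 1034 in AOM/DSS and 363 in both, and 504, 650 and 234 with a mean of at least 50 counts. With no filter they were 1384 and 1606 in the single models. Leaving out each adenoma in turn gave 432 to 947 in ApcMin/+, 672 to 1214 in AOM/DSS and 174 to 369 in both. The lowest values came without ApcMin/+ adenoma 3 (432) and without AOM/DSS adenoma 2 (672 and 174). Without both of these libraries, a setting chosen after seeing the data, 94 genes were shared. Within bins of mean level 228 genes were shared. Lists with an SD of at least 0.5 numbered 4 to 11 in ApcMin/+ and 5 to 14 in AOM/DSS when 1 adenoma was left out.

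The spread test called 0 genes in either direction under the alternatives run, apart from FPKM (1 wider in AOM/DSS) and no filter (1984 wider in AOM/DSS and 1602 in ApcMin/+). Of these 1531 and 1302 had a mean under 10 counts, and 1472 and 1257 had no count in the other model. With a replicate block it called 0 and 0, with 1637 and 1188 genes at an unadjusted p under 0.05. The adenoma numbers did not pair the samples: deviations of same-numbered adenomas had correlations of -0.13, -0.39 and -0.33, and every adenoma correlated better with another number. The spread test was not run with 1 adenoma left out, because the deviations of the remaining 2 are equal by construction.

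With 3 adenomas per model an SD is itself imprecise, so a spread test that called no gene does not show equal spread. Genes near 10 counts have an SD that counting noise can raise.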

Other observations

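Single genes of some smaller programmes were widely spread. Among mast cell genes, Mcpt1, a mucosal mast cell protease, had 38.8, 10.1 and 8.35 CPM in ApcMin/+ adenomas 1 to 3 and 85.6, 15.8 and 73.0 in AOM/DSS adenomas 1 to 3. Of 15 mast cell genes, 5 were widely spread in ApcMin/+ and 2 in AOM/DSS, against 5.29% and 6.58% of all genes. Of the stress genes, Hspa1a, an inducible heat shock protein, had 5.73, 39.7 and 15.6 CPM in the AOM/DSS adenomas. In AOM/DSS 2 of 22 heat shock genes were widely spread, against 6.58% of all genes. The clock output genes Dbp and Nr1d1 were both highest in ApcMin/+ adenoma 3, at 14.7 and 39.1 CPM against 4.43 to 5.58 and 11.9 to 13.0 in the other two. Their SDs were 0.26 and 0.34 in AOM/DSS.

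Paneth cell genes were present in all 6 adenomas, with a list SD of 0.32 in ApcMin/+ and 0.37 in AOM/DSS. The 18 genes summed to 2540 to 5323 CPM in the adenomas. They summed to 1229 CPM in the ApcMin/+ section and 1027 in the AOM/DSS section. Lyz1, the Paneth cell lysozyme, had 1152, 2665 and 1218 CPM in ApcMin/+ and 1976, 1781 and 1277 in AOM/DSS, against 39.5 and 236 in the sections. Mmp7, a protease that activates defensins in the mouse, had 488, 610.0 and 254 CPM in ApcMin/+ and 521, 669.8 and 636 in AOM/DSS. Every adenoma was above its section for both genes. Of 18 Paneth cell genes, 1 was widely spread in ApcMin/+ and 3 in AOM/DSS, against 5.29% and 6.58% of all genes. Mptx1 and Mptx2, pentraxin family genes, were both highest in ApcMin/+ adenoma 1 and AOM/DSS adenoma 2. Mptx1 had 11, 1.62 and 2.65 CPM in ApcMin/+ and 0.0855, 6.24 and 0.892 in AOM/DSS, with 534 and 73.3 in the sections. Mptx2 had 44.3, 17.5 and 12.1 CPM, then 20.2, 119 and 58.6, with 0.232 and 0.611 in the sections. Mptx1 was thus lower and Mptx2 higher in every adenoma than in its section.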
